A study of Homo sapiens with 24 samples.

Results

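PC3 cells exposed to hypoxia were compared with PC3 cells in normoxia, by RNA sequencing of 6 libraries out of the 24 of the series. PC3 is an established prostate cancer cell line, known to lack functional p53. Members were defined by their labels alone: 3 libraries of PC3 cells kept at 0.5% oxygen for 16 h, and 3 of PC3 cells kept at 21% oxygen. Both groups grew in Ham's F12K medium with fetal bovine serum, and the labels name no genetic change and no drug for either. The other 18 libraries, used only to test differences from the PC3 response, came from A549 lung, HCT116 colorectal and T47D breast cancer cells under the same oxygen states. As a model, each group is 1 cell line in culture, with no stroma, vessels or immune cells, and 1 time point. The sources used here do not say whether the 3 replicates were separate cultures, so p values measure only the spread between these libraries, which may be technical.

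Cells sense oxygen through hypoxia-inducible factor (HIF), whose alpha subunits are hydroxylated by prolyl hydroxylases in the presence of oxygen, bound by the von Hippel-Lindau protein and degraded. When oxygen falls, the alpha subunits pair with HIF-1 beta and bind short DNA elements whose core is RCGTG, where R is A or G. Their targets are known for carrying glucose uptake, glycolysis, pH control, angiogenesis and matrix modification.

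The libraries held between 22698584 and 56663780 counts, and replicates of a group correlated at 0.985 to 0.994 across genes (Pearson's r of log2 levels). The first principal component held 56.9% of the variance and separated the oxygen states, with hypoxia replicate 1 and normoxia replicate 3 farthest apart. Levels are CPM, counts scaled to the library total after adjustment by the trimmed mean of M values (TMM). The epithelial markers summed to between 5504 and 5791 CPM in normoxia and between 5994 and 6313 CPM in hypoxia, and 3 of the 7 were upregulated and none downregulated, with *EPCAM*, *KRT8* and *KRT18* among those not called. Of the 10 luminal prostate markers, 5 were too low to be tested, and *KLK2*, *KLK3*, *FOLH1* and *MSMB* had 0 counts in all 6 libraries. *HOXB13*, a prostate homeobox factor, was at 79.9, 77.6 and 75.1 CPM in normoxia and 127, 93.9 and 83 CPM in hypoxia and was not called. The luminal prostate list summed to 125 to 137 CPM in normoxia and 166 to 258 CPM in hypoxia, and *TMPRSS2*, a membrane protease of the prostate, rose from 7.54, 6.79 and 5.62 CPM to 45.7, 18.4 and 17.1 CPM (log2 fold change 2.03 ± 0.34, SE). The neuroendocrine list summed to 39.1 to 48 CPM in normoxia and 81.9 to 94.2 CPM in hypoxia, of which *ENO2*, also a glycolytic enzyme, gave 38 to 46.6 and 80.5 to 92.6 CPM. The luminal breast list summed to 38.9 to 43.4 CPM in normoxia and 44.5 to 76.4 CPM in hypoxia, highest in hypoxia replicate 1. The fibroblast list summed to 12.7 to 17.3 CPM in normoxia and 18.8 to 22.8 CPM in hypoxia, and the markers of leukocytes, endothelium, lung and intestine summed to at most 3.1 CPM in any library.

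Among 13466 genes tested, 16.6% were upregulated and 15.7% were downregulated, where a call needed an adjusted p under 0.05 (edgeR) and a fold change over 1.2. Changes over 2-fold were found for 342 upregulated and 150 downregulated genes, and changes over 4-fold for 57 and 6. The balance of increases and decreases depended on the settings, with 2237 and 2109 here, 1917 and 2547 after scaling by total counts, and 977 and 572 at an adjusted p under 0.01 (edgeR). In bulk RNA, a change in the level of a transcript per cell and a change in which cells the culture holds cannot be told apart. The gene lists described below were chosen with earlier results of these data known, so their counts are descriptions and not tests.

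**Figure D1:**
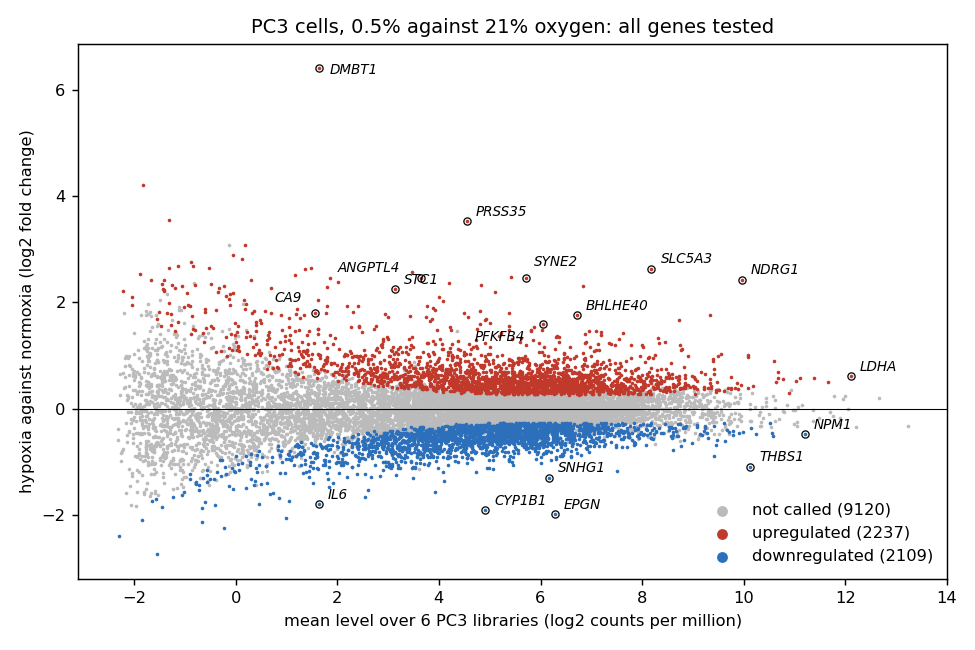
Each point is 1 of the 13466 genes tested, with its mean level over the 6 PC3 libraries (log2 CPM) on the x axis and its log2 fold change in hypoxia on the y axis. Upregulated genes are red, downregulated genes blue and genes not called grey, and the labelled increases such as *DMBT1* and *NDRG1* reach farther from 0 than the labelled decreases such as *EPGN* and *CYP1B1*.

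Promoter sequences of genes described here are shown with every RCGTG core in capitals, spelled ACGTG or GCGTG on the strand printed and CACGT or CACGC where the core lies on the opposite strand. They were read from RefSeq promoter windows of GRCh38.p14, each covering 250 bases before and 50 bases after a transcript start, and each printed stretch holds 80 bases, 5′ to 3′ on the strand of the gene. The set covers the HIF hydroxylase *EGLN1* (chr1:231422288-231422367, minus strand), the glycolytic genes *PGK1* (chrX:78104012-78104091, plus strand) and *PFKFB4* (chr3:48556927-48557006, minus strand), the mTORC1 inhibitor *DDIT4* (chr10:72273798-72273877, plus strand), the lipase inhibitor *ANGPTL4* (chr19:8363905-8363984, plus strand), the mitophagy receptor *BNIP3* (chr10:131982007-131982086, minus strand) and the carbonic anhydrase *CA9* (chr9:35673848-35673927, plus strand).
EGLN1: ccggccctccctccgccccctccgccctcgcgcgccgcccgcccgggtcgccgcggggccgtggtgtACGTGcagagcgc
PGK1: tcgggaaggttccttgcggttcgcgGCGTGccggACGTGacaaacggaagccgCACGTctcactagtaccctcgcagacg
PFKFB4: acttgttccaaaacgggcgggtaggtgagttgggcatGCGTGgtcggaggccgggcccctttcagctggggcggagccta
DDIT4: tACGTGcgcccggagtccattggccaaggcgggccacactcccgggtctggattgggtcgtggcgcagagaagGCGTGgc
ANGPTL4: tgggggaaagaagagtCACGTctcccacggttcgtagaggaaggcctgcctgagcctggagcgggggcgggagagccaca
BNIP3: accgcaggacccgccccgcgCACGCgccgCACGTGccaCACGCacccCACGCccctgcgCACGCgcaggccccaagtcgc
CA9: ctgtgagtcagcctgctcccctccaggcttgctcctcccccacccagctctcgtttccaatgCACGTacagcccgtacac
The *BNIP3* stretch held 6 cores, 1 pair of which overlaps as CACGTG, and the *PGK1* stretch held 3. Of the promoter windows of the conserved HIF targets described next, which covered 41 of the 48 genes, 54 of 71 (76.1%) held a core, beside 48.4% of all 35116 windows in the RefSeq table. The study chose these genes partly for HIF binding near them, so a high share was built in. The RefSeq table also holds genes that were not tested here, so nothing is read from the difference. The shares were 55.8% for windows of upregulated genes, 66% for downregulated genes and 60.2% for genes not called, but only 77.8% of the genes tested could be matched to a window, so that check is void and nothing is read from it. A match is a description of the letters and not evidence of binding.

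The first question was which parts of the HIF system itself moved. The oxygen sensors and the coactivators were upregulated, while the transcript of the main oxygen-regulated subunit was not called. Of 14 genes for HIF subunits, hydroxylases and cofactors, 8 were upregulated and none was downregulated, with a median log2 fold change of 0.383 beside -0.011 for all genes tested. *HIF1A*, whose protein is controlled mainly by degradation, was at 517, 453 and 426 CPM in normoxia and 502, 391 and 371 CPM in hypoxia, which overlap. *EPAS1*, encoding HIF-2 alpha, was at 182, 205 and 137 CPM in normoxia and 286, 242 and 225 CPM in hypoxia (log2 fold change 0.52 ± 0.15, SE; adjusted p = 0.0255, edgeR). The *EPAS1* call was lost when normoxia replicate 1, hypoxia replicate 1 or hypoxia replicate 2 was left out, with log2 fold changes of 0.55, 0.42 and 0.55. *EGLN1*, the principal HIF prolyl hydroxylase, rose from 83.2, 95.7 and 74 CPM to 203, 169 and 168 CPM (1.09 ± 0.12, adjusted p = 0.000805, edgeR). The hypoxic libraries thus lay above every normoxic one for both *EPAS1* and *EGLN1*. Its paralog *EGLN3* was at 0.985, 1.41 and 2.22 CPM in normoxia and 7, 3.02 and 3.24 CPM in hypoxia. *EGLN3* was upregulated (adjusted p = 0.0158, edgeR) but was not called without hypoxia replicate 1 (log2 fold change 1.01; adjusted p = 0.0577, edgeR) or normoxia replicate 1 (1.30; adjusted p = 0.0513, edgeR). The coactivators *CREBBP* (0.89 ± 0.12) and *EP300* (0.68 ± 0.11), which acetylate histones at HIF-bound promoters, and *CITED2* (0.40 ± 0.09), which competes with HIF for them, were upregulated in this comparison and whichever library was left out. After correction for GC content and transcript length, the log2 fold change was 0.40 for *CREBBP*, 0.35 for *EP300* and 0.31 for *EPAS1*. Under leave-one-out the list count fell to 4 without normoxia replicate 1 or hypoxia replicate 1 and to 5 without hypoxia replicate 2, and it was 5 after that correction.

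Conserved HIF targets were upregulated almost throughout. Of the 48 genes of the study's conserved signature, 47 were upregulated and none was downregulated, with a median log2 fold change of 0.762. The study chose this signature partly on these libraries, so the count is not independent evidence of its direction. *NDRG1*, a stress-responsive growth regulator, was at 337, 312 and 287 CPM in normoxia and 1822, 1327 and 1898 CPM in hypoxia (2.43 ± 0.14). *ANGPTL4*, a secreted inhibitor of lipoprotein lipase, rose from 3.6, 3.85 and 3.84 CPM to 16.5, 18.5 and 27.5 CPM (2.47 ± 0.20; adjusted p = 0.000134, edgeR). *BHLHE40*, a repressor that feeds into the circadian clock, rose from 46, 50.5 and 46.4 CPM to 185, 140.2 and 161 CPM (1.76 ± 0.11). For all of these the lowest hypoxic library was more than 2-fold above the highest normoxic one. *DDIT4*, which restrains mTORC1, rose from 11, 9.49 and 12.3 CPM to 39.1, 30.2 and 38.8 CPM (1.72 ± 0.14). *PNRC1*, a nuclear receptor coactivator, had a log2 fold change of 1.89, and the smallest upregulated change was that of *RBPJ*, the DNA-binding factor of Notch signaling, at 0.29, a call that was lost when any library but normoxia replicate 2 was left out (0.49 after GC and length correction). *STC2* was the 1 gene not called, at 558, 685 and 448 CPM in normoxia and 649, 848 and 763 CPM in hypoxia (0.42 ± 0.16; adjusted p = 0.0622, edgeR). It was called with DESeq2, without the filter on low counts and with the replicate block, so that 48 of 48 were upregulated in each of these fits. With 1 library left out, between 40 and 47 of the 48 genes were upregulated. The count was 44 after GC and length correction and 32 in the fit of all 24 libraries. Stricter thresholds gave 37 at an adjusted p under 0.01 (edgeR) and 30 at a fold change over 1.5.

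**Figure D2:**
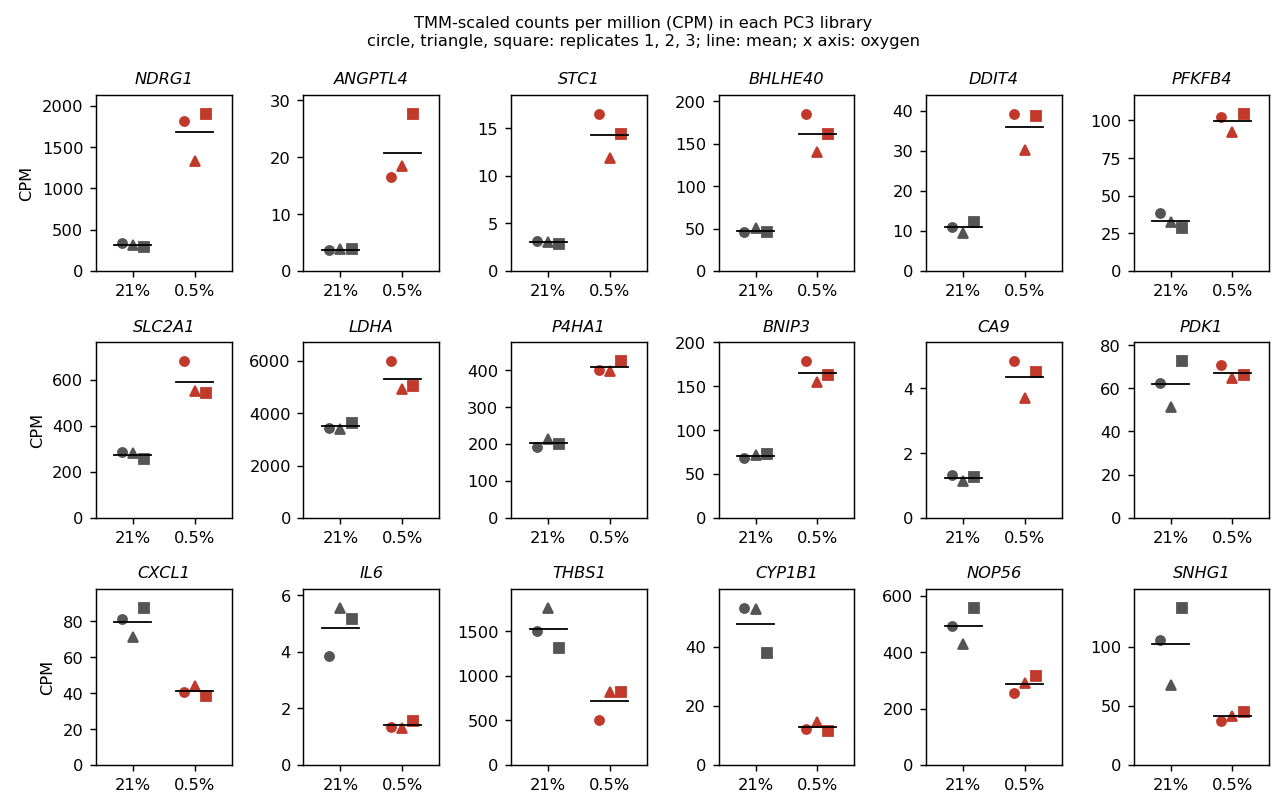
Each panel shows 1 gene, with the CPM of each of the 3 normoxic (21% oxygen, grey) and 3 hypoxic (0.5% oxygen, red) PC3 libraries and a line at each group's mean. *NDRG1*, *ANGPTL4* and *BNIP3* separate fully upward, *CXCL1*, *IL6* and *NOP56* separate fully downward, and the groups of *PDK1* overlap.

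Glucose handling was upregulated from the transporter to lactate export. Of 31 genes tested for glucose uptake, glycolysis and lactate, 18 were upregulated and 2 downregulated, with a median of 0.546, and the count of increases was 18 whichever library was left out, while that of decreases was 0 without hypoxia replicate 1 or 3. *SLC2A1*, the glucose transporter GLUT1, rose from 287, 282 and 254 CPM to 679, 552 and 542 CPM (1.11 ± 0.11, adjusted p = 0.000493, edgeR). Both hexokinases rose: *HK1* from 283, 331 and 213 CPM to 704, 573 and 528 CPM (adjusted p = 0.00228, edgeR), and *HK2* from 185, 229.8 and 149 CPM to 336, 334 and 369 CPM (0.88 ± 0.14). The regulatory kinases and phosphatases *PFKFB4* (1.59 ± 0.12) and *PFKFB3* (1.41 ± 0.11), which set the level of fructose 2,6-bisphosphate, had the largest increases of the list. The enzymes *PGK1*, *ENO1*, *PKM* and *ALDOA* had log2 fold changes between 0.51 and 0.68. *LDHA*, which converts pyruvate to lactate, was at 3439.7, 3404 and 3625 CPM in normoxia and 5974, 4928 and 5021 CPM in hypoxia (0.61 ± 0.10), and *SLC16A3*, which exports lactate, rose from 270.2, 276 and 239 CPM to 621, 607 and 575 CPM (adjusted p = 0.000132, edgeR). Enzymes of the list without a call are shown by this pair. *GAPDH* lay higher in all hypoxic libraries but was not called (0.24 ± 0.09; adjusted p = 0.058, edgeR), and *LDHB* lay lower in all of them without a call (-0.23 ± 0.09; adjusted p = 0.0702, edgeR).

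For the step that links glycolysis to the mitochondrion, upregulated shares were near the 16.6% over all genes, so nothing is read from them. Among 15 genes for pyruvate dehydrogenase and its regulators 2 were upregulated (13.3%), and among 20 genes of the tricarboxylic acid cycle 3 were (15%). None was downregulated in either list, although 3 and 2 were without normoxia replicate 2. *PDK1*, the kinase that inactivates pyruvate dehydrogenase and a textbook HIF target, was at 62.3, 51.4 and 72.4 CPM in normoxia and 70.8, 64.6 and 66 CPM in hypoxia (0.11 ± 0.12; adjusted p = 0.496, edgeR). The called kinase was *PDK3* at 0.54 ± 0.12. *PC*, pyruvate carboxylase, which feeds carbon to oxaloacetate, rose from 23, 28.7 and 23.2 CPM to 74.4, 57.1 and 54.5 CPM (1.31 ± 0.14, adjusted p = 0.000701, edgeR). For glycogen, 6 of 18 genes were upregulated and 2 downregulated, and the increases included *GYS1*, glycogen synthase, at 0.61 ± 0.11 (0.39 after GC and length correction) and *GBE1*, the branching enzyme, at 0.85 ± 0.12. *GYG1*, the primer glycogenin, fell (-0.59 ± 0.13). With 1 library left out, 6 or 7 glycogen genes were upregulated. Of them, 1 was downregulated without hypoxia replicate 1 and 3 were without normoxia replicate 2.

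Some mitophagy genes and some genes of pH control were upregulated. *BNIP3*, a mitophagy receptor of the outer mitochondrial membrane, rose from 67.9, 71.6 and 72.2 CPM to 178, 155 and 163 CPM (1.23 ± 0.09, adjusted p = 9.84e-05, edgeR), and *PINK1*, a kinase that marks damaged mitochondria, rose by 0.96 ± 0.13. Of 12 genes for mitophagy and hypoxic control of the respiratory chain, 4 were upregulated and 3 downregulated (median -0.107), and the 3 became 0 without hypoxia replicate 1 and 1 without hypoxia replicate 2 or 3. For pH control, 5 of 11 genes were upregulated and 1 downregulated (median 0.221). The upregulated shares were 33.3% for mitophagy and 45.5% for pH control, beside 16.6% over all genes. The downregulated shares were 25% and 9.09%, beside 15.7%, and nothing is read from these few decreases. *CA9*, the membrane carbonic anhydrase, was at 1.33, 1.15 and 1.27 CPM in normoxia and 4.84, 3.71 and 4.51 CPM in hypoxia (1.81 ± 0.21). Its relative *CA12* rose as well, by 0.60 ± 0.13 (0.38 after GC and length correction), and reached 18.7, 20.5 and 22.7 CPM.

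Secreted factors were mostly upregulated. Of 32 tested, 19 rose and 2 fell, with a median of 0.525, and between 17 and 20 rose with 1 library left out. *STC1*, a calcium-regulating hormone, rose from 3.17, 3 and 2.86 CPM to 16.4, 11.9 and 14.4 CPM (2.24 ± 0.16, adjusted p = 8.42e-05, edgeR). *VEGFA*, the main angiogenic factor, was at 82.3, 72.5 and 81.8 CPM in normoxia and 143, 104 and 103 CPM in hypoxia (0.56 ± 0.13). Its relatives *VEGFC* (0.93 ± 0.17) and *PGF* (1.26 ± 0.25) rose as well, *PGF* from a level of at most 2.35 CPM. Growth factor genes included *TGFB1* at 0.81 ± 0.10 and *IGF2* at 1.94 ± 0.32, the latter from 5.18, 7.12 and 4.26 CPM to 34.1, 14.5 and 15.8 CPM. *IGFBP3*, which binds insulin-like growth factors, rose from 100.1, 95.4 and 105 CPM to 206, 186 and 306 CPM (1.22 ± 0.17). The main exception was *THBS1*, thrombospondin-1, a secreted inhibitor of angiogenesis, which fell from 1504, 1758 and 1312 CPM to 509, 818 and 815 CPM (-1.09 ± 0.18; adjusted p = 0.00354, edgeR).

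Enzymes that use oxygen as a substrate were prominent among the increases. Of 18 genes for collagen hydroxylases, lysyl oxidases and their partners, 11 were upregulated and none was downregulated, with a median of 0.478 and with between 9 and 12 upregulated when 1 library was left out. *P4HA1*, a catalytic subunit of collagen prolyl hydroxylase, rose from 192, 214 and 200.4 CPM to 399.9, 398 and 423 CPM (1.01 ± 0.09, adjusted p = 0.000233, edgeR). *PLOD2*, a collagen lysyl hydroxylase, rose by 0.86 ± 0.10. The lysyl oxidases cross-link collagen, and *LOXL2* rose from 111, 116 and 93.1 CPM to 331, 275 and 255 CPM (1.43 ± 0.13), beside *LOXL4* at 1.15 ± 0.15. Among 25 oxygenases of chromatin and nucleic acids that use 2-oxoglutarate, 15 were upregulated and none was downregulated. They included the histone demethylases *KDM4B*, from 42.3, 44 and 34.4 CPM to 88.3, 81.7 and 83.8 CPM (1.07 ± 0.11, and 0.67 after GC and length correction), and *KDM3A* (0.79 ± 0.09), and the RNA demethylase *ALKBH5* (0.92 ± 0.11). That second count was 10 after correction for GC content and length, 9 without hypoxia replicate 1 and 10 without hypoxia replicate 2.

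Lipid synthesis rose at the level of several enzymes. Of 28 genes for sterol synthesis and its control, 14 were upregulated and none was downregulated (median 0.282), and 14 remained the count after GC and length correction. That count was 10 without normoxia replicate 1, hypoxia replicate 1 or hypoxia replicate 2, and 12 without hypoxia replicate 3. It was 17 without normoxia replicate 3 and 6 in the fit of all 24 libraries. *INSIG2*, which retains the sterol sensor in the endoplasmic reticulum, rose from 40.7, 35.5 and 39.2 CPM to 81.9, 59.8 and 68.2 CPM (0.86 ± 0.12), and *SQLE*, squalene epoxidase, an oxygen-consuming enzyme, rose by 0.62 ± 0.10. For fatty acids, 11 of 40 genes rose (27.5%) and 5 fell (12.5%), beside 16.6% and 15.7% over all genes. In the fit of all 24 libraries 3 rose and none fell, beside 867 and 425 of 16089 genes. *SCD*, the oxygen-dependent stearoyl-CoA desaturase, rose from 782, 731 and 679.6 CPM to 1571, 1247 and 1459 CPM (0.96 ± 0.11, adjusted p = 0.000944, edgeR), and *FASN*, fatty acid synthase, rose by 0.90 ± 0.14, and by 0.31 after GC and length correction. The 11 increases became 7 without hypoxia replicate 1, 5 without hypoxia replicate 2 and 7 after GC and length correction, and the 5 decreases became 2 without either of those libraries and 3 without normoxia replicate 1, normoxia replicate 3 or hypoxia replicate 3.

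Genes of adhesion, cell state and invasion were more often upregulated than downregulated, and mesenchymal *VIM* and epithelial *CDH1* both rose. Of 42 tested, 23 rose and 1 fell, with a median of 0.375. *VIM*, the mesenchymal filament vimentin, rose from 325, 364 and 309 CPM to 561, 586 and 576 CPM (0.79 ± 0.10), while *CDH1*, epithelial cadherin, rose from 221, 230.3 and 167 CPM to 314, 281 and 302 CPM (0.54 ± 0.12). Integrins, the receptors for matrix, were upregulated in 6 of 8 cases. *ITGA5*, the fibronectin receptor subunit, rose from 31.2, 31.9 and 25.8 CPM to 98.1, 70.5 and 78.4 CPM (1.47 ± 0.14, adjusted p = 0.000308, edgeR), and *ITGB4* reached 773, 884 and 987 CPM (0.93 ± 0.12, and 0.47 after GC and length correction). *PLAU*, urokinase, fell from 1185, 1151 and 1151 CPM to 755, 904 and 907 CPM (-0.44 ± 0.10). The transcription factors *SNAI1*, *ZEB1* and *ZEB2*, known to drive a mesenchymal shift, were tested and not called. Their log2 fold changes were negative whichever library was left out (-0.66 to -0.29, -0.25 to -0.12 and -1.03 to -0.32). The count of 23 was 15 without normoxia replicate 1, 15 without hypoxia replicate 1 and 16 without hypoxia replicate 2.

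**Figure D3:**
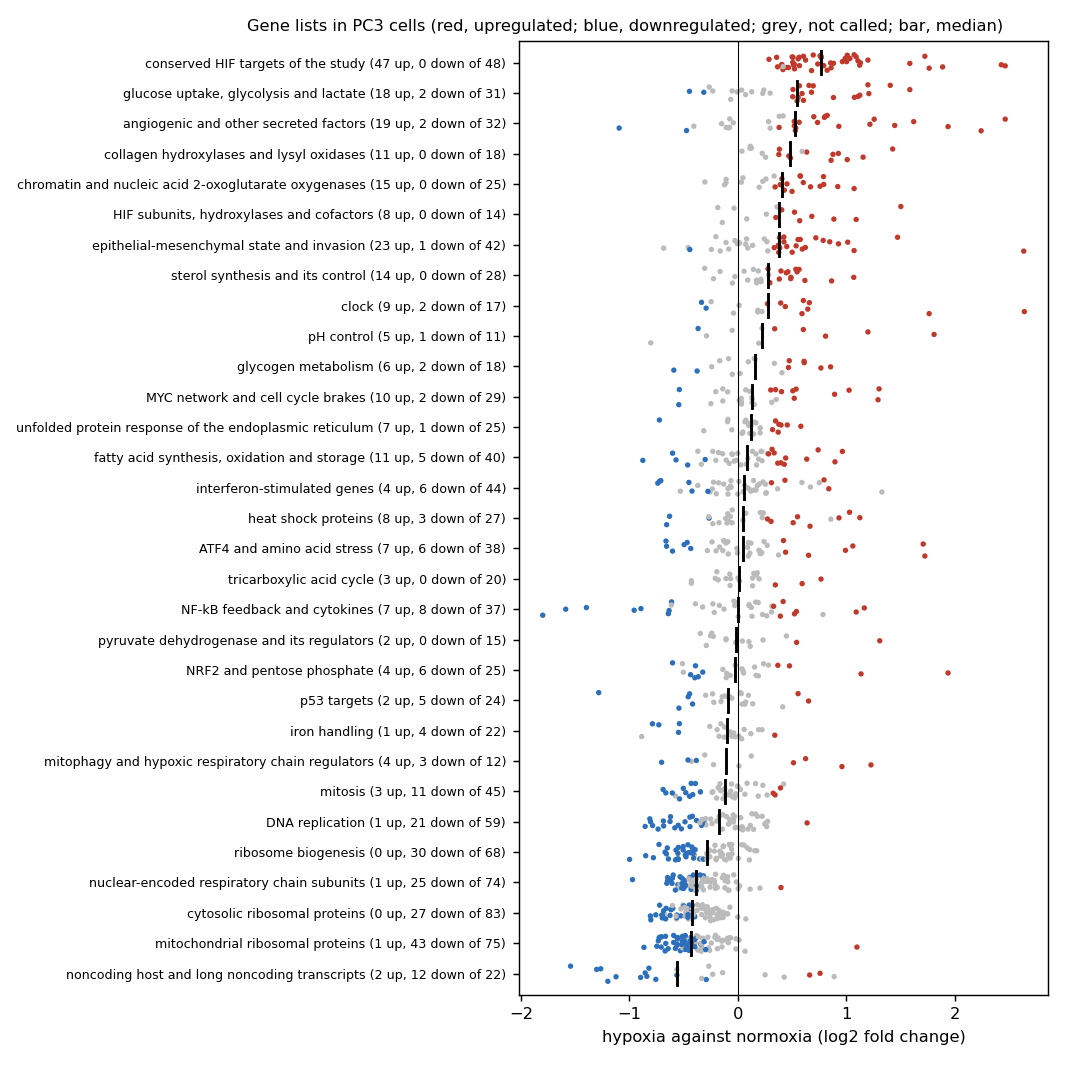
Each row is a gene list, each point the log2 fold change of 1 tested member in PC3 cells, and each black bar the list median, with the counts upregulated and downregulated in the row label. The conserved HIF targets lie at the top with a median of 0.762 and the noncoding host transcripts at the bottom with a median of -0.563.

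Some genes of cell cycle inhibitors were upregulated and some of DNA replication downregulated. Of 29 genes for the MYC network and cell cycle inhibitors 10 rose and 2 fell, with a median of 0.129 that was -0.007 after GC and length correction. *CDKN1C*, the cyclin-dependent kinase inhibitor p57, rose from 3.9, 3.76 and 5.08 CPM to 13.5, 8.52 and 9.33 CPM (1.30 ± 0.21), and *CDKN2B* (1.03 ± 0.18) and *MXD1*, an antagonist of MYC (0.89 ± 0.16), rose as well. That count was 6 without normoxia replicate 1 or hypoxia replicate 1. Of 59 DNA replication genes, 21 fell and 1 rose (median -0.173). The declines included the clamp loader subunits *RFC4*, from 36.4, 34 and 46.3 CPM to 18.3, 20.9 and 25.2 CPM (-0.86 ± 0.15; adjusted p = 0.0042, edgeR), and *RFC3* (-0.69 ± 0.11), and the origin recognition subunit *ORC5* (-0.79 ± 0.11). After GC and length correction these were -0.53 for *RFC4*, -0.30 for *RFC3* and -0.46 for *ORC5*. None of the helicase genes *MCM2* to *MCM7* was called. Those 21 declines became 9 without hypoxia replicate 1, 9 without hypoxia replicate 2 and 14 without hypoxia replicate 3.

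Transcripts of ribosome assembly factors were downregulated in part. Of 68 genes for ribosome biogenesis, 30 were downregulated, 38 were not called and none was upregulated (median -0.282). *NOP56*, a core protein of box C/D small nucleolar ribonucleoproteins, fell from 491, 427 and 555 CPM to 254, 291 and 314 CPM (-0.78 ± 0.12, adjusted p = 0.003, edgeR). *TAF1D*, a subunit of the RNA polymerase I selectivity factor, fell from 59.7, 47 and 66.7 CPM to 25.5, 29.6 and 31.5 CPM (adjusted p = 0.00181, edgeR), and *GNL3*, nucleostemin, fell by 0.73 ± 0.12 on the log2 scale. After GC and length correction the log2 fold change was -0.52 for *TAF1D* and -0.44 for *GNL3*. The list summed to between 14058 and 14521 CPM in normoxia and between 10824 and 12110 CPM in hypoxia, so the groups did not overlap. Between 21 and 36 of its genes were downregulated with 1 library left out, and 22 after GC and length correction. Lower counts were 16 at an adjusted p under 0.01 (edgeR), 12 in the fit of all 24 libraries and 8 at a fold change over 1.5.

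Host transcripts of small nucleolar RNAs, which guide the chemical modification of ribosomal RNA, fell alongside. Of 8 such noncoding genes 7 were downregulated (median -1.01), and of the wider list of 22 noncoding transcripts 12 were downregulated and 2 upregulated. *SNHG1* fell from 106, 67.6 and 133 CPM to 37.2, 41.7 and 45 CPM (-1.30 ± 0.20, adjusted p = 0.00303, edgeR). *GAS5*, the growth arrest-specific host transcript, fell from 31, 26.5 and 53.4 CPM to 14.4, 15.8 and 18 CPM (-1.20 ± 0.23). Upward, *MIR210HG*, the host of the hypoxia-induced miR-210, went from 5.87, 3.61 and 5.15 CPM to 8.33, 7.59 and 8.5 CPM (0.76 ± 0.19). Without hypoxia replicate 1 or hypoxia replicate 2 the 12 declines became 7.

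Structural proteins of the ribosomes and the respiratory chain had negative medians, but their levels moved with 1 library. Mitochondrial ribosomal proteins were downregulated in 43 of 75 cases (median -0.433), cytosolic ribosomal proteins in 27 of 83 (median -0.421) and nuclear-encoded respiratory chain subunits in 25 of 74 (median -0.382). The cytosolic ribosomal proteins summed to 56550, 50938 and 78132 CPM in normoxia and 51402, 48660 and 48539 CPM in hypoxia. The mitochondrial ribosomal proteins summed to 6416, 6017 and 8154 CPM in normoxia and 5491, 5545 and 5359 CPM in hypoxia, and the respiratory subunits to 11850, 10828 and 14948 CPM and then 10899, 10387 and 10283 CPM. Normoxia replicate 3 was highest for all of them, and for the cytosolic ribosomal proteins and the respiratory subunits the remaining normoxic libraries overlapped the hypoxic ones.

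These transcripts are short, with a median exon length of 869 bases for cytosolic ribosomal proteins, 1224 for mitochondrial ribosomal proteins and 781 for respiratory subunits, beside 3284 bases for all genes tested. After GC and length correction 8 of 83 cytosolic ribosomal, 19 of 75 mitochondrial ribosomal and 8 of 74 respiratory genes were downregulated. Over all genes that fit had 1638 of 13034 downregulated, so the cytosolic ribosomal and respiratory counts are not read as a decline. In the fit of all 24 libraries the counts were 0, 3 and 0, beside 425 of 16089 genes. Without hypoxia replicate 1 these counts were 0, 8 and 1, without hypoxia replicate 2 they were 1, 17 and 1, and without hypoxia replicate 3 they were 2, 23 and 1. Leaving out normoxia replicate 1 gave 12, 31 and 11, normoxia replicate 2 gave 64, 55 and 55, and normoxia replicate 3 gave 19, 36 and 12. Leaving out any hypoxic library therefore lowered all of these counts, and leaving out normoxia replicate 2 raised them. Over all genes tested, the downregulated count went from 2109 to 875, 875 and 1309 without hypoxia replicate 1, 2 and 3. It was 1289, 2732 and 1735 without normoxia replicate 1, 2 and 3, so these moves were not particular to the lists. In the same order of lists, the medians were -0.182, -0.27 and -0.134 without normoxia replicate 3. After GC and length correction they were -0.144, -0.199 and -0.091. With any other library left out, the medians of these lists lay between -0.554 and -0.356. The part of transcript length or of normoxia replicate 3 in the declines was not tested. By complex, downregulated subunits numbered 10 of 37 in complex I, 5 of 9 in complex IV and 7 of 15 in complex V. *COX7B*, a subunit of complex IV, was at 73.6, 72.5 and 148 CPM in normoxia and 46.3, 51.4 and 51.9 CPM in hypoxia (-0.97 ± 0.24), and its call was lost without hypoxia replicate 1 (-0.92; adjusted p = 0.057, edgeR).

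**Figure D4:**
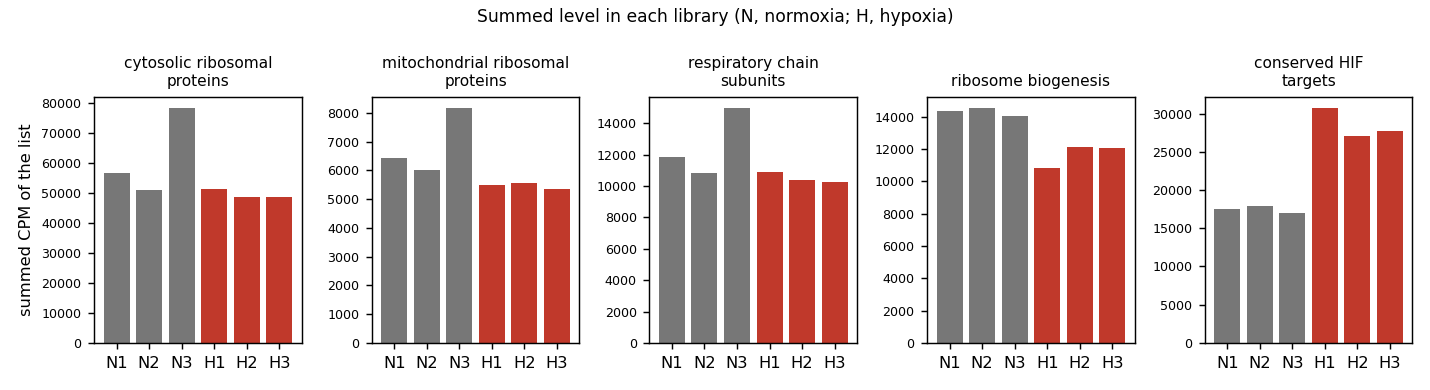
Bars give the summed CPM of each gene list in each PC3 library, normoxia (N1 to N3) in grey and hypoxia (H1 to H3) in red, on axes from 0. Normoxia replicate 3 holds the highest bar for the ribosomal proteins and respiratory subunits, up to 78132 CPM. Ribosome biogenesis, the conserved HIF targets and the mitochondrial ribosomal proteins separate the oxygen states.

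Of 37 genes for NF-kB feedback and cytokines, 8 fell (21.6%) and 7 rose (18.9%), shares near the 15.7% and 16.6% over all genes, so the counts are not read as a result. *IL6* fell from 3.85, 5.53 and 5.15 CPM to 1.34, 1.3 and 1.55 CPM (-1.80 ± 0.21; adjusted p = 0.00105, edgeR), and *CXCL1*, a neutrophil chemokine, fell from 81.4, 71.1 and 87.2 CPM to 40.8, 44.1 and 38.7 CPM (-0.96 ± 0.10; adjusted p = 0.000735, edgeR). *NFKBIA*, which encodes the inhibitor of NF-kB, rose from 77.5, 83.8 and 72.3 CPM to 266, 157 and 101 CPM (1.17 ± 0.27), with hypoxia replicate 1 the highest. *IL11*, a cytokine of the IL-6 family, rose from 6.21, 4.29 and 5.56 CPM to 13.6, 10.3 and 10 CPM (1.09 ± 0.18). The 7 increases became 4 without normoxia replicate 1 and 2 without hypoxia replicate 2.

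The remaining lists are given by their counts, to be read against 16.6% upregulated and 15.7% downregulated over all genes, with the range over the libraries left out. Those shares belong to the fit of all 6 libraries, and the counts over all genes also moved with the library left out. They ranged from 1308 to 2629 upregulated and from 875 to 2732 downregulated. The unfolded protein response list had 7 of 25 genes upregulated (2 to 7 with 1 library left out, lowest without normoxia replicate 1) and 1 downregulated. The ATF4 list, for amino acid stress, had 7 upregulated (5 to 9) and 6 downregulated (4 to 7) of 38. Interferon-stimulated genes had 4 upregulated (1 to 4) and 6 downregulated (2 to 6) of 44, and mitotic genes 3 upregulated (0 to 4) and 11 downregulated (2 to 13) of 45. Heat shock protein genes had 8 upregulated (5 to 10) and 3 downregulated (0 to 3) of 27, and genes of NRF2 and the pentose phosphate pathway 4 upregulated (1 to 6) and 6 downregulated (1 to 5) of 25. The p53 target list had 2 upregulated (1 to 2) and 5 downregulated (3 to 5) of 24, and iron genes 1 upregulated (0 to 1) and 4 downregulated (3 to 5) of 22. Clock genes had 9 upregulated (3 to 8) and 2 downregulated (0 to 2) of 17. Apart from the unfolded protein response, upregulated counts were lowest, alone or tied, without hypoxia replicate 1 in these lists, as was the count over all genes (1308).

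The largest increases were a mixed group in which 1 library often stood above the others. *INHA*, the inhibin alpha subunit, rose from 0.728, 0.666 and 0.794 CPM to 5.56, 4.15 and 3.98 CPM (2.65 ± 0.24, adjusted p = 0.000233, edgeR), and the long noncoding RNA *UCA1* from 12.5, 13.4 and 13.3 CPM to 101, 61.4 and 55.2 CPM (2.47 ± 0.21). *C10orf10*, an autophagy-linked gene also named DEPP1, rose from 1.28, 1.09 and 0.794 CPM to 5.68, 4.19 and 7.51 CPM (2.46 ± 0.27). These increases were shared among the hypoxic libraries. *SLC5A3*, the sodium-coupled myo-inositol transporter, was at 79.5, 75.8 and 86.2 CPM in normoxia and 959, 304 and 238 CPM in hypoxia, a log2 fold change of 2.64 ± 0.44 that was 1.75 without hypoxia replicate 1 (adjusted p = 0.000392, edgeR). *PRSS35*, a serine protease-like gene, was at 4.71, 2.66 and 3.94 CPM and then 100.1, 16.1 and 11.7 CPM, and its log2 fold change of 3.53 ± 0.75 was 1.91 without hypoxia replicate 1 (adjusted p = 0.00396, edgeR). Hypoxia replicate 1 was the highest hypoxic library for both.

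*DMBT1*, a mucosal glycoprotein gene, had the largest fitted change, but its normoxic libraries held at most 4 counts, so the fitted value of 6.41 ± 1.24 depends on the prior count and is no bound. Its hypoxic levels were 14.3, 2.39 and 1.02 CPM, and the fitted value was 4.60 without hypoxia replicate 1. *SYNE2*, which links the nucleus to the cytoskeleton, rose from 14.4, 17.3 and 16.8 CPM to 171, 52.1 and 44.6 CPM (2.46 ± 0.44), and *ESR2*, estrogen receptor beta, from 1.67, 0.888 and 1.33 CPM to 10.3, 4.86 and 4.48 CPM (2.38 ± 0.37). On GRCh37, *SYNE2* (chr14:64228617-64693151, plus strand) and *ESR2* (chr14:64550950-64804830, minus strand) overlap on opposite strands, and since the strand setting of the counting is not given in the sources used here, their reads may not be told apart. *MMP13*, a collagenase, was at 0.685, 0.388 and 1.05 CPM in normoxia and 9.48, 2.21 and 1.16 CPM in hypoxia (2.64 ± 0.74), and it was not called without hypoxia replicate 1 (1.29; adjusted p = 0.0853, edgeR) or normoxia replicate 1 (adjusted p = 0.0612, edgeR). Among 11538 genes above a log2 level of 1, 31 were over 2-fold higher in hypoxia replicate 1 than in both other hypoxic libraries, of which 22 were upregulated, against 3 and 6 for hypoxia replicates 2 and 3.

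*MRPS6*, a mitochondrial ribosomal gene, ran against its list at 86.8, 79 and 104 CPM in normoxia and 335, 130 and 113 CPM in hypoxia (1.10 ± 0.34). It shares its promoter window with *SLC5A3*, which lies within it on GRCh37 (*MRPS6* at chr21:35445524-35515334 and *SLC5A3* at chr21:35445878-35478559, both plus strand), so reads of the pair may not be fully separable. The shared stretch, with its core in capitals, is at chr21:34073478-34073557 on GRCh38.p14.
SLC5A3 and MRPS6: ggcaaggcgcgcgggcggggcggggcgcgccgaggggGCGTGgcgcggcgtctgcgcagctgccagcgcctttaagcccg
Without hypoxia replicate 1 the log2 fold change of *MRPS6* was 0.43 and the call was lost (adjusted p = 0.0585, edgeR). It was also lost without normoxia replicate 1 (1.07) and without normoxia replicate 2 (1.01).

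**Figure D5:**
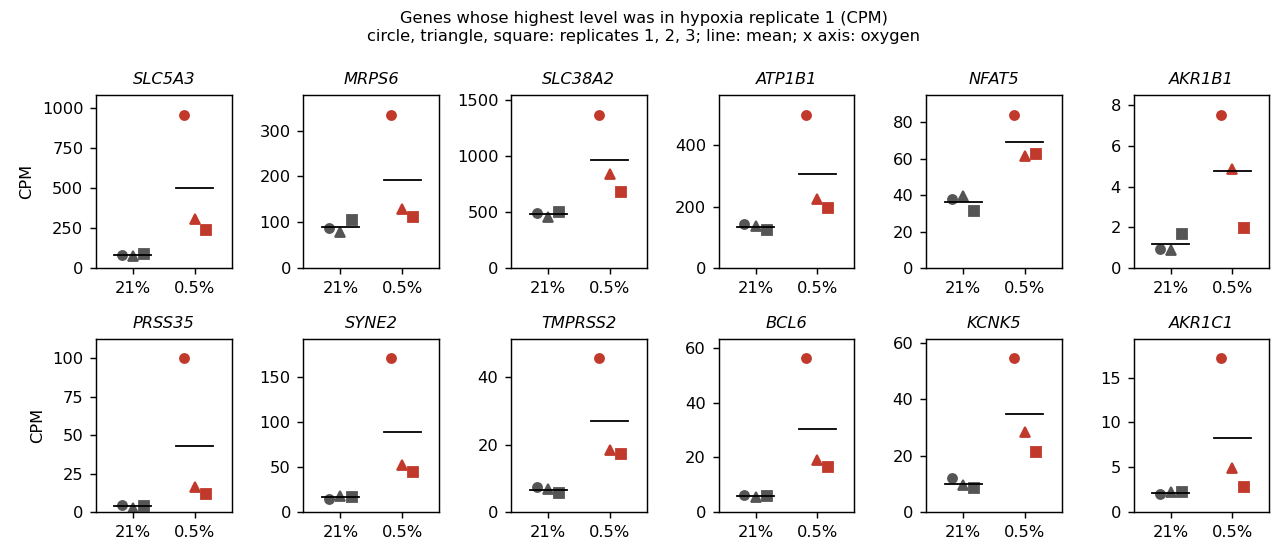
Each panel shows 1 gene whose highest level was in hypoxia replicate 1 (circle), with CPM in the normoxic (grey) and hypoxic (red) libraries on the y axis and a line at each mean. For *SLC5A3*, hypoxia replicate 1 reached 959 CPM, beside 304 and 238 CPM in the other hypoxic libraries.

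The largest decreases are described by their values, since the rule that chose them required groups without overlap. *EPGN*, epigen, a ligand of the epidermal growth factor receptor, fell from 108, 112 and 153 CPM to 32.2, 33.4 and 28.3 CPM (-1.99 ± 0.14; adjusted p = 8.42e-05, edgeR). *CYP1B1*, a cytochrome P450 under control of the aryl hydrocarbon receptor, which also pairs with HIF-1 beta, fell from 52.9, 52.6 and 37.7 CPM to 12.2, 14.5 and 11.4 CPM (-1.91 ± 0.15; adjusted p = 0.000132, edgeR). *GPCPD1*, a phosphodiesterase of choline metabolism, fell from 22, 23.2 and 23.1 CPM to 7.65, 7.45 and 7.97 CPM (-1.56 ± 0.11; adjusted p = 7.91e-05, edgeR). All of these were downregulated whichever library was left out. *SERPINB2*, a plasminogen activator inhibitor, fell from 2.87, 2.92 and 4.03 CPM to 0.962, 0.952 and 1.01 CPM (-1.75 ± 0.24), and *SLC16A14*, an orphan transporter of the lactate transporter family, from 24.1, 24.2 and 26.5 CPM to 9.53, 10.1 and 9.49 CPM (-1.36 ± 0.11).

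The called genes of highest hypoxic CPM, a scale that is not per length, were compared across the libraries left out. The 10 upregulated ones included *LDHA*, *PKM*, *ENO1*, *PGK1* and *ALDOA*, the last of which rose from 1279, 1333 and 1166 CPM to 2129, 2009.9 and 1911 CPM. Of the 10, 6 were upregulated whichever library was left out, against 1 of the 10 most abundant downregulated genes. Over all called genes, 1094 of 2237 upregulated and 714 of 2109 downregulated genes were called in every leave-one-out fit. Nothing about abundance is read from these counts. The abundant downregulated genes included *NPM1*, a nucleolar chaperone, at 2641, 2324 and 3309.7 CPM in normoxia and 1962, 1977 and 1974 CPM in hypoxia. The decline of *NPM1* (-0.48 ± 0.13) was not called without hypoxia replicate 1, 2 or 3 and was -0.05 after GC and length correction.

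PC3 cells were then set against the other lines, by testing, in 1 fit of all 24 libraries, whether the log2 fold change in PC3 differed from the mean of those in A549, HCT116 and T47D. Of 16089 genes tested, 0.622% had a higher log2 fold change in PC3 than that mean and 1.36% a lower one at an adjusted p under 0.05 (edgeR). These are signed differences, so a gene that fell more in PC3, or fell there and rose elsewhere, counts as lower. Lower values included those of classical HIF targets. *BNIP3* rose by 1.28 in PC3 against 1.62, 3.07 and 3.68 in A549, HCT116 and T47D, a difference of -1.51 ± 0.16 (adjusted p = 3.67e-06, edgeR). *HK2* rose by 0.93 against 4.60, 3.74 and 3.10 (-2.89 ± 0.33; adjusted p = 8.54e-06, edgeR), and *ALDOC*, an aldolase, by 1.26 against 4.99, 4.53 and 4.10. *CYP1B1* had a log2 fold change of -1.87 in PC3 against -0.18, 0.64 and 1.32, a difference of -2.46 ± 0.26 (adjusted p = 3.67e-06, edgeR). Higher in PC3 were the log2 fold changes of *KCNK5*, a potassium channel, at 1.85 against -0.18, 0.45 and -0.41 (1.90 ± 0.31; adjusted p = 0.00111, edgeR), *PALM3*, a membrane-associated protein gene, at 2.16 against 0.14, 0.68 and -0.13, and *SLC5A3* at 2.69 against 0.97, 0.00 and 0.01. *KCNK5* was at 11.9, 9.4 and 8.61 CPM in normoxia and 54.6, 28.6 and 21.2 CPM in hypoxia, again highest in hypoxia replicate 1. With 1 PC3 library left out, genes with a higher log2 fold change in PC3 ranged from 15, without hypoxia replicate 1, to 108, and those with a lower one from 95, also without hypoxia replicate 1, to 172.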

How the data were processed

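Polyadenylated RNA of PC3 cells was sequenced from directional libraries. The authors trimmed reads with Trim Galore (0.3.3), used HISAT2 (2.05) to align to GRCh37, dropped fragments that did not map uniquely by means of Picard (2.0.1) and counted fragments per UCSC gene with HTSeq (0.5.4p3) in its intersection-strict mode. The strand setting is not given in the sources used here. The deposited values are whole-number counts for 23106 gene symbols, without normalization. The authors named DESeq2 for differential expression at the thresholds used here.

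From these counts, fold changes, standard errors and p values were computed with edgeR (4.0.16) in R (4.3.3), by filterByExpr, TMM scaling and the quasi-likelihood test over the 6 PC3 libraries, with Benjamini-Hochberg adjustment over all 13466 genes tested. Genes were called at an adjusted p under 0.05 together with a change over 1.2-fold. CPM are TMM-scaled, and the prior count of log2 levels was 2. The floor of 3 counts covers counting error only and came to 0.0529 to 0.128 CPM. On simulated counts, 82.9% of genes changed 2-fold were recovered with 17 false calls among 13156 unchanged genes. With a simulated GC trend there were 2376 false calls among 13163, and 8 among 12749 after the GC and length correction. That trend was in GC content alone, with the same slope in all libraries of an oxygen state, and changed genes were drawn at random. The correction fits such a trend by design, so the simulation cannot tell how it treats real changes that follow GC content or length.

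The members, gene lists and tests were chosen with earlier results of these data known. Genes named are list members, the 12 largest changes in each direction above a log2 level of 1 with no overlap, the 10 called genes of highest hypoxic CPM in each direction and the 6 of smallest p in each direction against the other lines. *BCL6* and the osmotic list were chosen after their values were seen. Gene coordinates came from GENCODE lifted to GRCh37, matched for 93.4% of symbols. Replicate numbers are shared between the oxygen states in the labels, but same-numbered libraries correlated at 0.0799 to 0.083 in their deviations from group means, under the 0.1 set for pairing. Alternatives were DESeq2 (1.42.0), other scalings, filters and thresholds, splines on GC content and transcript length, the replicate block, a fit of all 24 libraries and leaving out each library.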

Additional observations from a re-analysis of the deposited data

Results flagged for a closer look

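Genes are given here because their hypoxic response in PC3 differed from the mean of the responses in A549, HCT116 and T47D, by a test of the difference itself (adjusted p under 0.05, edgeR, all 24 libraries). Values are log2 fold changes in PC3 minus that mean.

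The log2 fold change was higher in PC3 for the ion and solute carriers *KCNK5* (1.90), *SLC5A3* (2.36) and *SLC6A9*, a glycine transporter (1.26), for *PALM3* (1.93) and for *OSBP2*, an oxysterol-binding protein (1.23). The overlapping pairs described above held further examples, *ESR2* (2.72) and *MRPS6* (1.29). *AKR1C1*, an aldo-keto reductase, differed by 3.04, and its PC3 libraries held 2.01, 2.2 and 2.19 CPM in normoxia and 17.2, 4.94 and 2.73 CPM in hypoxia. That gene was not called in PC3 without hypoxia replicate 1 (log2 fold change 0.84) or without normoxia replicate 1 (1.90). *IFRD1*, a transcriptional regulator, differed by 1.33, with log2 fold changes of -0.57 in PC3 against -2.16, -1.88 and -1.66 in A549, HCT116 and T47D.

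Among genes of glucose metabolism given here, the log2 fold change was lower in PC3. The differences were -1.45 for *SLC2A1*, -2.89 for *HK2*, -1.59 for *ALDOA*, -3.28 for *ALDOC*, -1.20 for *GAPDH*, -1.35 for *PGK1*, -1.02 for *ENO1*, -1.14 for *ENO2*, -1.12 for *PKM*, -1.54 for *LDHA*, -1.56 for *SLC16A3* and -1.58 for *PFKFB4*. Toward the mitochondrion and glycogen they were -2.56 for *PDK1*, -1.06 for *PDK3*, -1.34 for *GYS1* and -1.18 for *GBE1*. *PDK1* rose by 0.17 in PC3 in that fit, against 2.64, 2.10 and 3.44 in A549, HCT116 and T47D.

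Other HIF targets with a lower log2 fold change in PC3 were *NDRG1* (-2.90), *ANGPTL4* (-2.29), *BNIP3* (-1.51), *DDIT4* (-1.48), *KDM3A* (-1.66), *P4HA1* (-1.50), *PLOD2* (-1.26), *MIR210HG* (-2.20), *STC2* (-1.47), *VEGFA* (-1.04), *IGFBP3* (-2.78) and *TMEM45A*, a membrane protein gene (-2.23). The feedback genes *EGLN1* (-0.74), *EGLN3* (-2.65) and *CITED2* (-1.81) belonged here too. *CYP1B1* (-2.46) had log2 fold changes of -1.87 in PC3 and -0.18, 0.64 and 1.32 in A549, HCT116 and T47D, and *THBS1* (-1.59) of -1.05 in PC3 and 0.23, 0.76 and 0.64. *CA9* differed by -8.04, but all normoxic T47D libraries had 0 counts of it, so the fitted difference depends on the prior count and is no bound.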

How the results depend on the processing

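Counts of upregulated and downregulated genes (2237 and 2109) depended on thresholds, libraries and the spread used. They were 1019 and 892 at a fold change over 1.5, 977 and 572 at an adjusted p under 0.01, 867 and 425 in 1 fit of all 24 libraries, and 1555 and 1638 after GC and length correction. Leaving out 1 library gave 1308 (without hypoxia replicate 1) to 2629 (without normoxia replicate 2) upregulated and 875 (without hypoxia replicate 1 or 2) to 2732 (without normoxia replicate 2) downregulated genes. Of the called genes, 1094 upregulated and 714 downregulated were called in every leave-one-out fit, 1215 and 1042 after GC and length correction, and 587 and 298 under every alternative run but the stricter thresholds. Without both libraries farthest apart, an alternative chosen after seeing the data, the counts were 1904 and 1564. Genes with a higher or lower log2 fold change in PC3 than in the other lines (100 and 219) numbered 12 and 93 at an adjusted p under 0.01, and 15 to 108 and 95 to 172 with 1 PC3 library left out, lowest without hypoxia replicate 1. The cause was not tested.

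In a fit with a replicate block, counts were 2349 and 2238, and 167 higher and 277 lower log2 fold changes in PC3 against the other lines. The numbers did not pair the libraries by the correlation of their deviations, although each library correlated best with its own number, a hint from the data and not from the design.

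Of 1890 values for the 105 called genes named, 1818 kept their call, 72 lost it and none reversed. Only genes without a call changed sign. GC and length correction, without and with the block, gave 0.19 and 0.19 for *EPCAM*, 0.09 and 0.08 for *HIF1A*, 0.10 and 0.11 for *LDHB*, and -0.06 and -0.05 for *MCM2*. With 1 library left out, *MCM2* ranged from -0.00 to 0.25 and *PDK1* from -0.00 to 0.24. Depth limits genes near the floor, such as *DMBT1*.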

Other observations

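Several genes with known roles in osmotic balance were highest in hypoxia replicate 1. The list of 11 was put together after the values were seen, so it is a description with no test. *SLC5A3* imports myo-inositol, *SLC38A2* small amino acids and *SLC6A6* taurine, *AKR1B1* makes sorbitol, *ATP1B1* is a subunit of the sodium pump and *NFAT5* is the transcription factor of the osmotic response. Summed over the list, the normoxic libraries held 1388, 1416 and 1269 CPM and the hypoxic libraries 3942, 2298 and 1998 CPM. The groups did not overlap with hypoxia replicate 1 or without it. Because members were chosen after these values were seen, nothing is read from that separation. The sum also holds members that are not named here.

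*SLC38A2* was at 489, 458 and 500.3 CPM in normoxia and 1368, 835 and 678 CPM in hypoxia (log2 fold change 0.99 ± 0.21, SE). *ATP1B1* was at 144, 135 and 122 CPM and then 499, 224 and 195 CPM (1.19 ± 0.29), and *NFAT5* at 38.1, 39.8 and 31.5 CPM and then 84.2, 61.6 and 62.4 CPM (0.93 ± 0.14). All were upregulated whichever library was left out, and hypoxia replicate 1 was the highest library for each. *BCL6*, a transcriptional repressor also chosen after its values were seen, had the same shape, at 6.25, 5.59 and 6 CPM in normoxia and 56.2, 18.9 and 16.4 CPM in hypoxia. What set hypoxia replicate 1 apart was not tested.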
